A study of Rattus norvegicus with 111 samples.

Results

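The data described here are the fetal liver libraries of rats whose mothers received 30 mg/kg/d of PFO4DA, a perfluoroalkyl ether carboxylic acid, set against the fetal liver libraries of the vehicle controls run with that chemical. There were 4 dosed libraries and 6 control libraries (0 mg/kg/d), 10 of the 111 libraries of the series. The labels give each dam of the chemical 1 fetal and 1 maternal liver library, but the names of the columns give the dam and not the stage. Of a dam's pair of columns, the one whose log2(CPM + 1) profile (CPM, the count scaled to a common library total of 1000000) had the higher Pearson correlation with the single column known to be maternal, that of dam 2286, was taken as maternal and the other as fetal. Dam 2286 had received 30 mg/kg/d of the related chemical PFO5DoA. The members were thus chosen by a measured value, the correlation of whole profiles, which is given as a description. In the 10 dams used here it was 0.8715 to 0.9091 for the fetal columns and 0.9679 to 0.9766 for the maternal ones, with a gap of 0.0595 to 0.0981 within a dam. The maternal columns had 0.9679 to 0.9703 at 0 and 0.9734 to 0.9766 at 30 mg/kg/d, while the fetal ranges of these doses overlapped. Whether dose enters the correlation was not tested. The narrowest gap within any of the 55 dams with 2 columns was 0.0524, and the order was the same by Spearman's rho in all 55. The mean correlation of a fetal column with the other fetal columns of the PFO4DA table was 0.9781 to 0.987 and with the maternal columns 0.8873 to 0.9167.

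Pregnant rats of the Sprague-Dawley strain (stock Crl:CD(SD), mated on a known day and aged 11 to 12 weeks when bought) were dosed by mouth from gestational day 18 to 22 with PFO4DA or its longer homologue PFO5DoA in 0.5% Tween-80. Both livers were taken 2 to 4 hours after the last dose, and expression was read with TempO-Seq, in which pairs of short detector probes are ligated on the RNA and counted by sequencing. The controls at 0 mg/kg/d had the same vehicle and schedule. Each dosed or control library came from a different litter, and the labels do not say how many fetuses a fetal library holds. The control dams were 2293, 2294, 2295, 2308, 2309 and 2310, and the dams at 30 mg/kg/d were 2306, 2307, 2317 and 2318. In order of identifier the doses climb from 0 mg/kg/d and start again at 0 from dam 2308. The dams were split there into a first run, up to dam 2307, and a second run, from dam 2308. Each run has 3 control dams and 2 dams at 30 mg/kg/d. These runs are read from the order of doses and not from a label. The fetal libraries held 8828968 to 11015791 counts at 0 and 8915141 to 10483446 counts at 30 mg/kg/d.

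The liver of a rat fetus near term is still a site of blood formation while its hepatocytes take on the enzymes of fat, bile acid and drug metabolism that the adult organ carries. Perfluoroalkyl acids are known in rodent liver as activators of the nuclear receptor PPARα, whose targets handle fatty acids in peroxisomes, mitochondria and microsomes. The deposited tables name genes by Ensembl identifier alone and none of the 20311 identifiers could be paired with a symbol here, so no pathway list and no cell type marker could be looked up, the labelled tissue could not be checked against its markers, and no sequence is shown. Genes are therefore described as sets, with 2 identifiers that rose and 2 that fell followed through every comparison.

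Dosing with 30 mg/kg/d raised the expression of 366 genes and lowered that of 352 in fetal liver relative to the controls, 6.43% of the 11172 genes tested (3.28% higher and 3.15% lower; edgeR's quasi-likelihood test, Benjamini-Hochberg adjusted p below 0.05). The rises were the larger changes. Their median log2 fold change was 1.11, with quartiles of 0.76 and 1.82, and 208 were at least 2-fold, 82 at least 4-fold, 38 at least 8-fold and 18 at least 16-fold. The falls had a median of -0.86, with quartiles of -1.25 and -0.61; 137 were at least 2-fold, 16 at least 4-fold, 5 at least 8-fold and 1 at least 16-fold. The median over all genes tested was -0.01. Changes below 1.5-fold made up 49 of the rises and 71 of the falls. In bulk liver, fewer cells of a type and less RNA per cell cannot be told apart. The last gene called had an adjusted p of 0.0498 and the first gene not called one of 0.05.

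In control liver the genes that fell had a higher median level than those that rose, which were near the median of all tested genes. The median level of the rises was 12.2 CPM in the controls and 28.9 CPM at 30 mg/kg/d, and that of the falls was 31.2 CPM and 18.1 CPM. Over all tested genes the median control level was 11 CPM. Of genes with a mean of at least 5 CPM in either group 7.9% were called, and of those with at least 100 CPM 13.7% were called. In 286 of the 366 rises (78.1%) every dosed library lay above every control library, as it did in 3.77% of all genes tested. In 174 of the 352 falls (49.4%) every dosed library lay below every control, against 1.95% of all genes. Overlap was read on CPM of the library total, while the calls used further scaling factors. What this adds to the gap between rises and falls was not tested. These levels and shares describe the calls, which rest on the same values.

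Summed over the called genes, the groups stood apart in every library. The 366 rises together took up 2.38% to 2.59% of all counts in the 6 control libraries. The dosed libraries held 6.81% in dam 2306, 7.83% in dam 2307, 7.63% in dam 2317 and 7.47% in dam 2318. The means were 2.48% ± 0.0915 (SD, n = 6) and 7.44% ± 0.442 (SD, n = 4). The 352 falls took up 11.2% to 15.8% of the counts in the controls, with 12.8% ± 1.76 (SD, n = 6), and 6.34%, 7.76%, 5.98% and 7.5% in dams 2306, 2307, 2317 and 2318, with 6.9% ± 0.868 (SD, n = 4). Neither sum overlapped between the groups. Since the genes were chosen for this difference, the sums are shown as a description and carry no test.

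**Figure D1:**
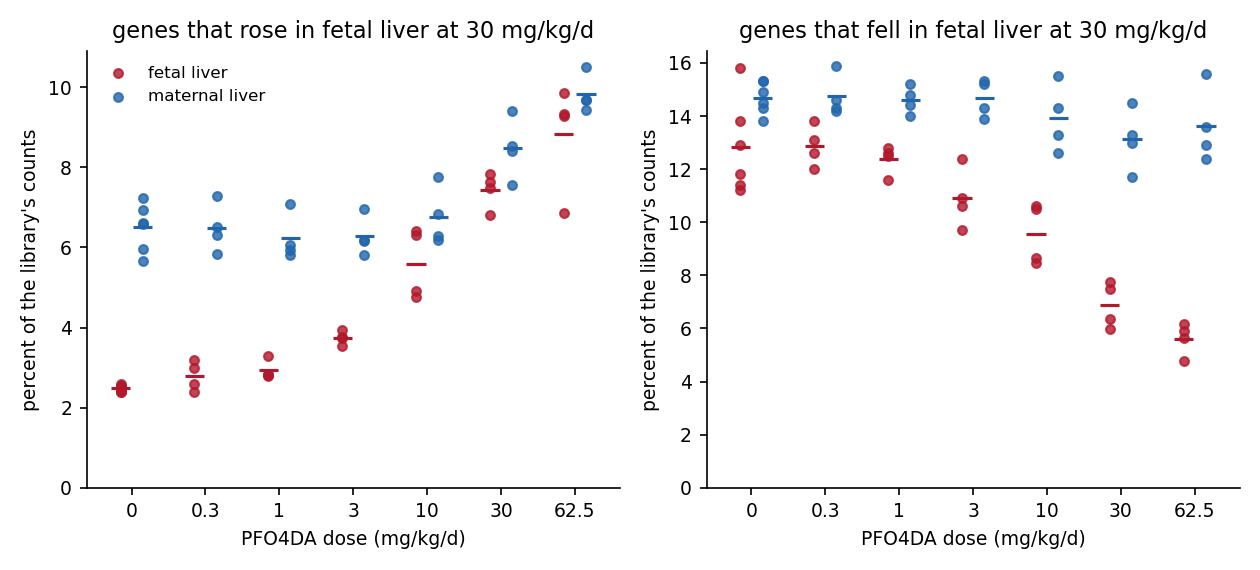
Percent of each library's counts in the 366 genes that rose (left) and the 352 that fell (right) in fetal liver at 30 mg/kg/d PFO4DA, by dose in mg/kg/d; points are libraries, short lines group means, red fetal and blue maternal liver. Fetal libraries at 30 mg/kg/d sit at 6.81% to 7.83% for the rises, above every control, and at 5.98% to 7.76% for the falls, below every control.

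The gene ENSRNOG00000029370 had the largest fold among the rises that met the naming rule (a mean of at least 5 CPM in either group and all dosed libraries above, or all below, the mean of the controls). It was nearly absent from control fetal liver, with 0 counts in dams 2293, 2294 and 2295 and 0.295, 0.453 and 0.509 CPM in dams 2308, 2309 and 2310. In the dosed litters it stood at 2.98 CPM in dam 2306, 48.4 CPM in dam 2307, 57.3 CPM in dam 2317 and 3.05 CPM in dam 2318. The groups did not overlap, but the dosed libraries split into a high pair and a low pair, with a high and a low dam in each run. Its log2 fold change of 6.97 had a standard error of 1.15 (edgeR's adjusted p = 3.86e-06; higher than every control in 4 of 4 libraries). The maternal livers of the same dams had the same high pair and low pair, with 15 CPM in dam 2307 and 24.9 CPM in dam 2317 against 0.584 CPM in dam 2306 and 0.384 CPM in dam 2318, and 0 to 0.707 CPM in the control dams. At 62.5 mg/kg/d the fetal level was 2.64 to 5.53 CPM, so the mean of 27.9 CPM at 30 mg/kg/d rests on 2 dams. One dam at 0.3 mg/kg/d, dam 2297, also had more of this gene than the others of its dose in both livers, with 2.44 CPM in the fetal and 9.09 CPM in the maternal library.

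The gene ENSRNOG00000055221 rose in every dosed litter. Control fetal livers had 49.2 CPM in dam 2293 and 2.32, 2, 6.48, 3.74 and 6.71 CPM in dams 2294, 2295, 2308, 2309 and 2310. The dosed levels were 476, 827, 595 and 522 CPM in dams 2306, 2307, 2317 and 2318. Even the lowest dosed library lay well above the control of dam 2293, which stood apart from the other controls. It rose by 5.54 on the log2 scale, standard error 0.61 (edgeR, adjusted p = 3.33e-06), and by 7.16 without dam 2293 (adjusted p = 3.06e-12). In the first run alone, which holds that dam, the value was 4.99 and did not pass (edgeR, adjusted p = 0.0925). In the second run alone it was 6.65 (edgeR, adjusted p = 7.2e-07).

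The gene ENSRNOG00000004009 fell furthest among those that met the rule. Its control levels were 35.6, 197, 124, 54.8, 137 and 78.2 CPM in dams 2293, 2294, 2295, 2308, 2309 and 2310, and at 30 mg/kg/d it was left at 7.75, 12.6, 5.61 and 13 CPM in dams 2306, 2307, 2317 and 2318. The controls were widely spread, yet the lowest of them was above every dosed library. On the log2 scale it fell by 3.48, standard error 0.38 (edgeR, adjusted p = 2.16e-06). It was -3.67 in the first run (adjusted p = 0.00352) and -3.22 in the second (adjusted p = 0.0133) when each was fitted alone in edgeR.

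The gene ENSRNOG00000001990 is a gene of the maternal more than of the fetal organ: control levels were 268 to 717 CPM in maternal and 24 to 129 CPM in fetal liver. In fetal controls it had 59.2, 32.9, 26.2, 129, 24 and 37.3 CPM in dams 2293, 2294, 2295, 2308, 2309 and 2310. The dosed libraries had 4.97, 14.8, 4.04 and 6.68 CPM in dams 2306, 2307, 2317 and 2318, each below every control. The fitted change was -2.78 on the log2 scale, standard error 0.49 (edgeR, adjusted p = 0.00105). It was -3.52 in the second run alone (edgeR, adjusted p = 0.0487), and -2.15 in the first, where it did not pass (edgeR, adjusted p = 0.192).

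The 12 largest rises by the same rule spanned log2 fold changes of 3.81 to 6.97, and in 12 of 12 the groups did not overlap. Their mean levels ran from 0.163 to 584 CPM in the controls and from 8.15 to 11800 CPM at 30 mg/kg/d. The 12 largest falls spanned -1.92 to -3.48, from control means of 5.51 to 783 CPM to means of 0.857 to 150 CPM, and 10 of 12 did not overlap.

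The sets called at 30 mg/kg/d were followed across the other doses. That choice favours large values at 30 mg/kg/d, and all these comparisons share the 6 control libraries. The values are therefore given side by side, with no test of a trend. The 366 rises had a median log2 fold change of 0.12 at 0.3, 0.25 at 1, 0.45 at 3, 0.79 at 10, 1.11 at 30 and 1.12 at 62.5 mg/kg/d. The medians of the 352 falls were -0.04, -0.14, -0.17, -0.46, -0.86 and -0.96. At 10 mg/kg/d, 178 of the 366 rises and 64 of the 352 falls were already called in the same direction, where 218 genes in all were higher (1.95%) and 77 lower (0.689%). The 3 mg/kg/d dose called 33 of the rises and 1 of the falls, which were all 34 genes called at that dose (0.304%). At 62.5 mg/kg/d, 315 of the rises and 305 of the falls were called, of 526 higher (4.71%) and 663 lower (5.93%) in all. No gene passed at 0.3 or 1 mg/kg/d with edgeR (0% at each), where DESeq2 called 1 and 5. Of the 11172 genes tested, 1125, 876 and 781 had an unadjusted p below 0.05 in edgeR at 0.3, 1 and 3 mg/kg/d. These counts did not rise with dose over that range.

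Compared directly, neighbouring doses differed in few genes. Between 10 and 30 mg/kg/d 9 genes differed, 8 of them higher at 30 (0.0806% of 11172; edgeR), and between 30 and 62.5 mg/kg/d 1 gene differed, higher at 62.5 (0.00895%; edgeR). DESeq2 called 27 and 2 genes in these comparisons. With 4 dams a dose, a small step between doses can miss the threshold, and these counts do not show that the doses acted alike. From 3 to 62.5 mg/kg/d the fetal means of ENSRNOG00000055221 and ENSRNOG00000004009 moved one way with dose, and those of the other named genes did not. ENSRNOG00000055221 averaged 99.4, 330, 605 and 766 CPM at 3, 10, 30 and 62.5 mg/kg/d. ENSRNOG00000004009 averaged 78.3, 38.4, 9.74 and 5.19 CPM at these doses. ENSRNOG00000001990 averaged 36.5, 21.3, 7.62 and 10.8 CPM, and was lowest at 30 mg/kg/d. ENSRNOG00000029370 averaged 0.502, 0.692, 27.9 and 4.2 CPM, and its mean at 30 mg/kg/d rests on dams 2307 and 2317. The 62.5 mg/kg/d dams were all in the second run.

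**Figure D2:**
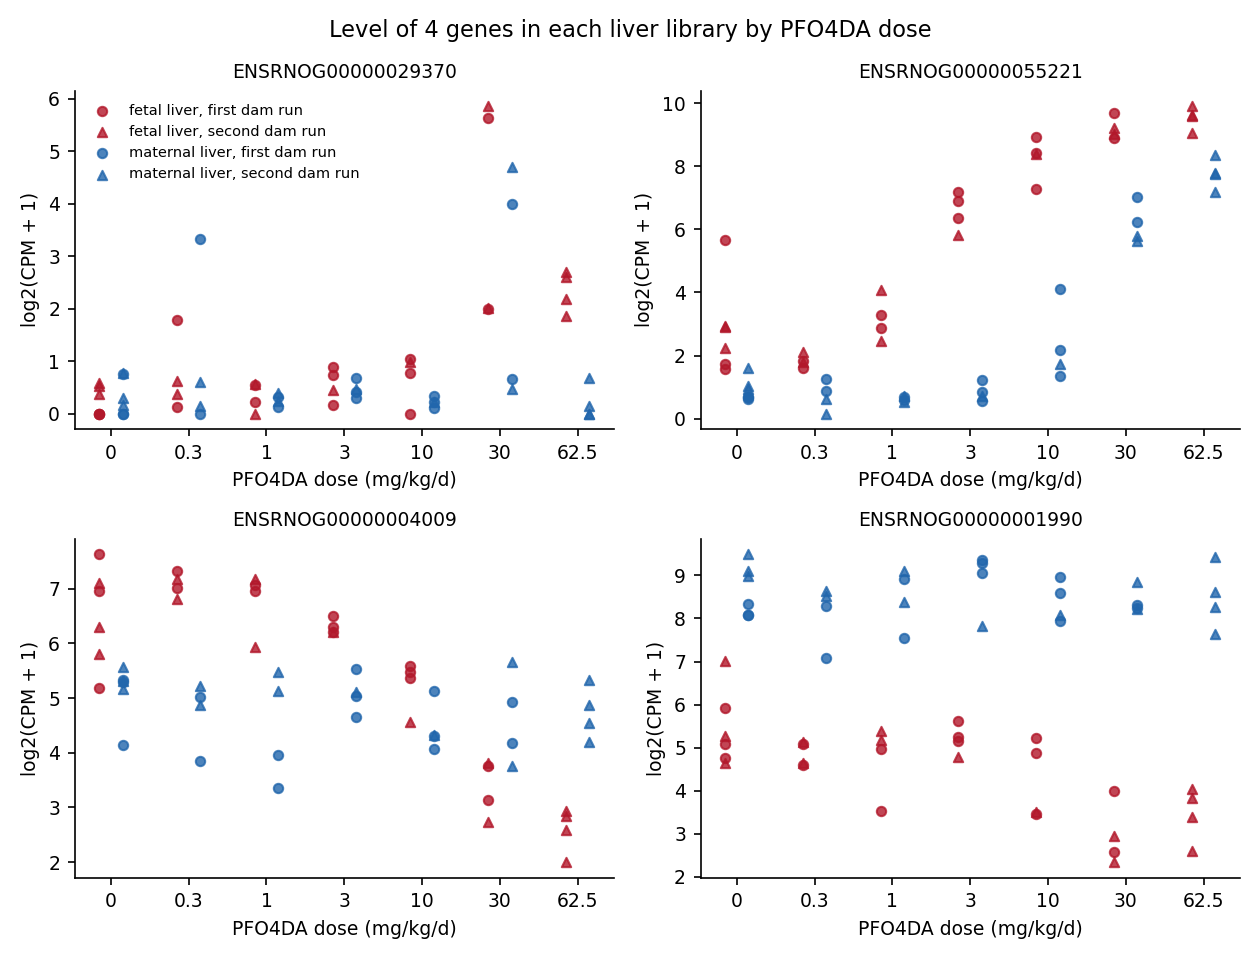
Level of the 4 named genes, as log2(CPM + 1), in every PFO4DA library against dose in mg/kg/d; red is fetal and blue maternal liver, circles the first and triangles the second dam run. At 30 mg/kg/d ENSRNOG00000029370 splits into 2 high and 2 low dams in both livers, and ENSRNOG00000001990 falls in fetal liver while the maternal level stays between 296 and 461 CPM.

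The maternal livers of the same dams were a point of comparison within the litter. In maternal liver of the 30 mg/kg/d dams 63 genes were higher and 2 lower, 0.633% of the 10263 tested there (0.614% higher and 0.0195% lower; edgeR). DESeq2 called 94 and 11. Of the 63 maternal rises 47 (74.6%) had also risen in fetal liver, which is 12.8% of the fetal rises. These 47 genes had a median log2 fold change of 1.93 in fetal and 1.59 in maternal liver. Of the fetal rises 319 were tested in maternal liver, where their median log2 fold change was 0.3 and 251 had a positive sign. Of the fetal falls 321 were tested in maternal liver, with a median of -0.15 and 233 of negative sign. Over all genes tested in maternal liver the median was 0. None of these 321 passed there in edgeR (34 were lower at an unadjusted p below 0.05, and DESeq2 called 2). Of all 10263 genes, 724 had an unadjusted p below 0.05 there, in either direction. At 0.3, 1 and 3 mg/kg/d, 269, 219 and 286 genes had one in the maternal fit. The fetal fit had 1125, 876 and 781 at these doses. Whether the fits are equally sensitive was not tested, so their counts of calls do not rank the livers by response. Followed to 62.5 mg/kg/d, where 2.46% of all genes were called in maternal liver (1.8% higher and 0.653% lower), 94 of the 319 rises were higher (29.5%) and 10 of the 321 falls lower (3.12%) and 1 higher, with medians of 0.43 and -0.13. At 10 mg/kg/d the maternal fit called 1 gene, higher (0.00974%), and it was among the fetal rises. DESeq2 called 24 genes there.

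**Figure D3:**
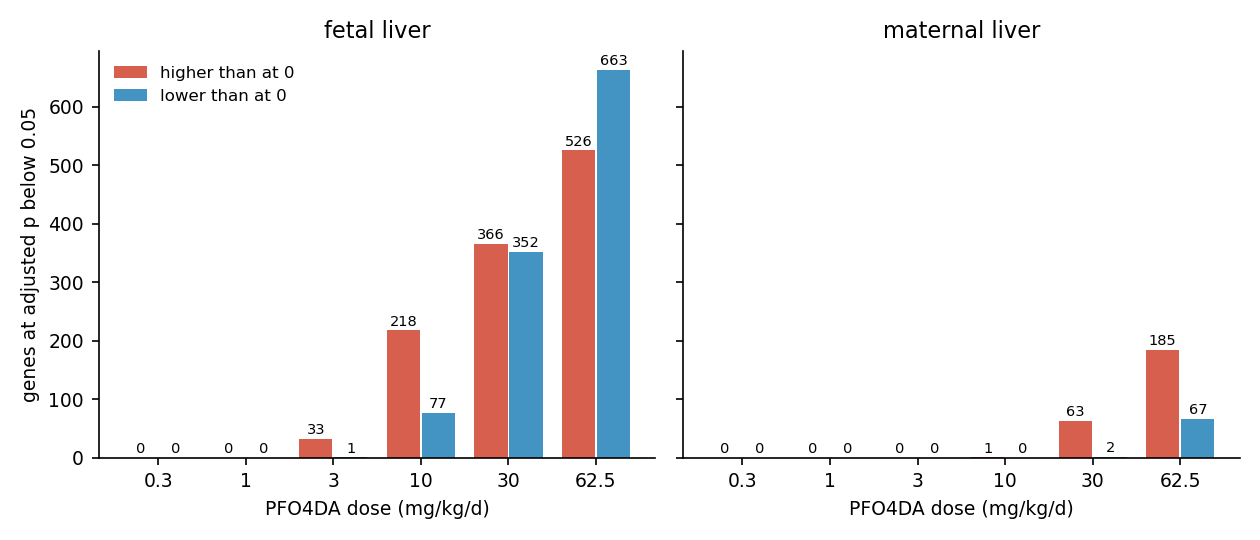
Number of genes at an adjusted p below 0.05 (edgeR) against the dose of PFO4DA in mg/kg/d, in fetal (left) and maternal (right) liver; red bars are genes higher and blue bars genes lower than in the controls. At 30 mg/kg/d fetal liver has 366 rises and 352 falls and maternal liver 63 and 2. The livers were fitted apart, and the counts do not measure how strongly each responded.

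Whether the fetal response differed from the maternal one was tested gene by gene, with the dam as a block over all 60 PFO4DA libraries. The log2 fold change at 30 mg/kg/d was higher in fetal than in maternal liver for 59 genes and lower for 60, 1.02% of 11610 tested (0.508% and 0.517%; edgeR). Of the 59, 56 were genes that rose in fetal liver, and of the 60, 55 were genes that fell there. The median difference in log2 fold change was 1.78 and -1.3 in these groups. The fetal change is part of the difference tested, which favours the overlap with the fetal calls, so that overlap is a description only. Of the 593 genes called in fetal liver and tested but not called in maternal liver, the difference itself passed for 106 and did not pass for 487, so for most of the genes called in a single organ a difference between organs was not shown. Of the 47 genes that rose in both livers, 4 rose further in fetal and 2 further in maternal liver. The count of 119 was 56 without dam 2317, 72 without dam 2307 and 76 without dam 2306, and 70 when the other doses were left out of the fit. It was 300 with no filter on low counts, where 19976 genes were tested, and 175 with DESeq2.

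**Figure D4:**
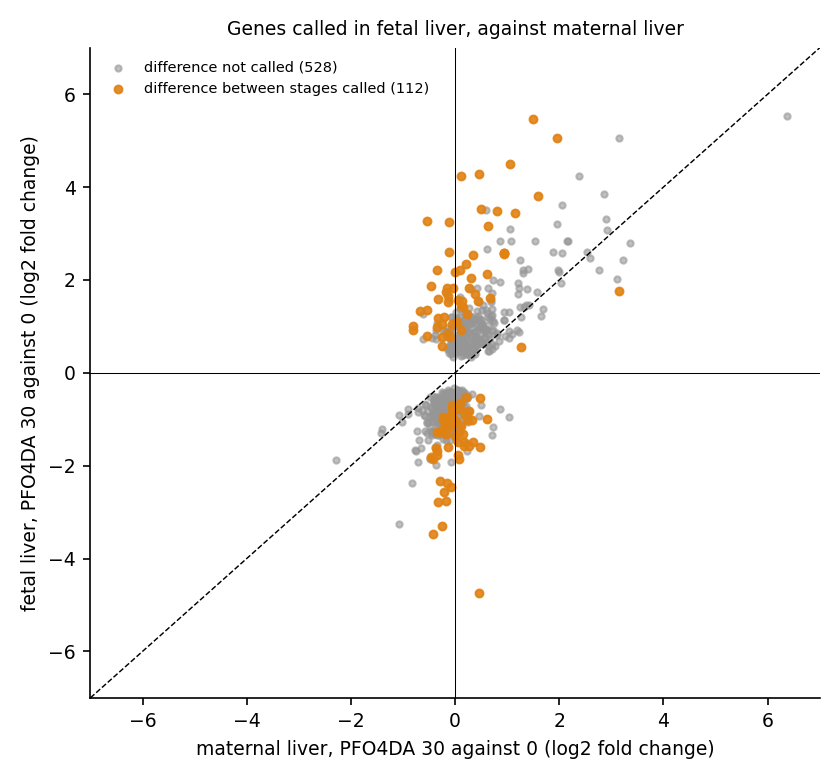
Log2 fold change at 30 against 0 mg/kg/d PFO4DA in fetal liver (vertical) and maternal liver (horizontal) for the 640 genes called in fetal liver and tested in both; orange points are the 112 genes whose difference between the livers passed the test, and the dashed line marks equal change. The orange points above and below 0 spread along the vertical axis, with maternal changes near 0 for most of them. The genes shown were chosen by their fetal change, which is part of the difference tested.

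Among the named genes, ENSRNOG00000004009 and ENSRNOG00000001990 fell in fetal liver, and their maternal changes did not pass the test. ENSRNOG00000004009 had 16.6 to 46.7 CPM in maternal controls and 17.2, 29.5, 12.6 and 49.8 CPM in the dosed mothers 2306, 2307, 2317 and 2318, a log2 fold change of -0.43 (edgeR, adjusted p = 0.91). The difference, fetal minus maternal, was -2.85, with -3.93 to -1.78 as its 95% interval (edgeR, adjusted p = 0.00566). ENSRNOG00000001990 had 315, 304, 296 and 461 CPM in these mothers, within the control range, and fetal minus maternal came to -2.47, interval -3.44 to -1.49 (edgeR, adjusted p = 0.00937). Without dam 2317 that difference was -2.24 and did not pass (edgeR, adjusted p = 0.0563). Both genes were chosen for their fetal fall, which enters these differences, so the tests are no independent support. Maternal liver under PFO5DoA was not tested here. There ENSRNOG00000004009 averaged 25.7 CPM at 0 and 0.584 CPM at 30 mg/kg/d, and ENSRNOG00000001990 averaged 352 and 1160 CPM.

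ENSRNOG00000055221 rose in both organs. Dosed mothers had 128, 74.8, 54.2 and 48.3 CPM against 0.528 to 2.03 CPM in control mothers, a log2 fold change of 6.37 (edgeR, adjusted p = 3.21e-08). The difference between the organs within dams was -0.01, interval -1.52 to 1.5 (edgeR, adjusted p = 1), and 0.93 without control dam 2293 (edgeR, adjusted p = 0.667). For ENSRNOG00000029370 the difference was 2.15 (unadjusted interval 0.21 to 4.1), which missed the threshold once adjusted (edgeR's adjusted p = 0.413). Fitted without a low-count filter, the value was 2.19 and passed (edgeR, adjusted p = 0.0405).

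The share of genes called in fetal liver was also counted by where a gene is more abundant in controls. In 5 control dams of the PFO5DoA table, 484 of the tested genes were at least 4-fold higher in maternal liver. Of these, 53 rose (11%) and 36 fell (7.44%) in fetal liver at 30 mg/kg/d PFO4DA. Of 921 genes at least 4-fold higher in fetal liver, 19 rose (2.06%) and 47 fell (5.1%). Of 8768 genes within 4-fold, 245 rose (2.79%) and 264 fell (3.01%). Of the 999 genes with no such value, 49 rose (4.9%) and 5 fell (0.501%). The backgrounds are 3.28% for rises and 3.15% for falls. The stages rest on the likeness of whole profiles, so these shares are given with no test. In PFO4DA controls the 366 rises took up 6.5% ± 0.583 (SD, n = 6) of the maternal counts and 2.48% of the fetal ones, and at 30 mg/kg/d 8.47% ± 0.761 (SD, n = 4) of the maternal and 7.44% of the fetal ones.

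PFO5DoA has a chain longer than that of PFO4DA by a further difluoromethoxy group, and 30 mg/kg/d was given of both. Each chemical had its own controls. For PFO5DoA, 5 fetal control libraries and 3 fetal libraries at 30 mg/kg/d were used. The PFO5DoA dams were split into runs in the same way, with a second run from dam 2278. The PFO5DoA dams at 30 mg/kg/d were all in that second run, while the controls came from both runs. Run was not a term of these fits, and its share in the counts below was not tested. The labels report that dams at this dose of PFO5DoA weighed less than controls by the end, with apparent harm to the fetuses of 1 dam. In fetal liver PFO5DoA raised 1590 genes and lowered 1853, 29.9% of 11509 tested (13.8% and 16.1%; edgeR). The change against own controls differed between the chemicals in 1591 genes, 637 higher and 954 lower under PFO5DoA (13.6% of 11732; 5.43% and 8.13%; edgeR). Without PFO5DoA dam 2288 the count of the difference was 922 and that of the PFO5DoA changes 2228. A single matched pair of groups was compared.

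Among the 366 genes that rose with PFO4DA, 48 had a higher and 72 a lower log2 fold change under PFO5DoA, and among the 352 that fell 25 had a higher and 92 a lower one. The median difference was -0.12 for the rises and -0.33 for the falls, against -0.06 for all genes. The genes were chosen by their PFO4DA change, which is subtracted in this difference. That choice tends to lower the difference for the rises and to raise it for the falls, so these values are a description only. At the matched dose 210 genes rose under both chemicals, 57.4% of the PFO4DA rises and 13.2% of the PFO5DoA rises. A further 253 fell under both, 71.9% of the PFO4DA falls and 13.7% of the PFO5DoA falls. In 25 genes the calls were opposite. The calls at 3 mg/kg/d of PFO5DoA included 0 opposite ones. Of the 815 genes called there (7.08%; 3.98% higher and 3.1% lower), 256 genes were shared rises, 69.9% of the PFO4DA rises and 55.9% of those of PFO5DoA. Shared falls at that dose numbered 181, 51.4% of the PFO4DA falls and 50.7% of those of PFO5DoA. The doses of that last pair differ, so these values stand side by side only.

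In fetal liver under PFO5DoA the rises were called higher in 13 of 365 tested at 0.3 mg/kg/d, where 0.113% of all genes were called, each higher (edgeR). The next dose, 1 mg/kg/d, called 143 of them higher (2.39% of all genes called; 1.74% higher and 0.652% lower). The count was 270 at 10 mg/kg/d (14.7%; 7.02% higher and 7.68% lower). Their medians were 0.3, 0.85 and 1.18 on the log2 scale. Of 350 falls tested, 0, 27 and 264 were called lower at these doses, with medians of -0.13, -0.38 and -1.08. These doses share their controls.

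**Figure D5:**
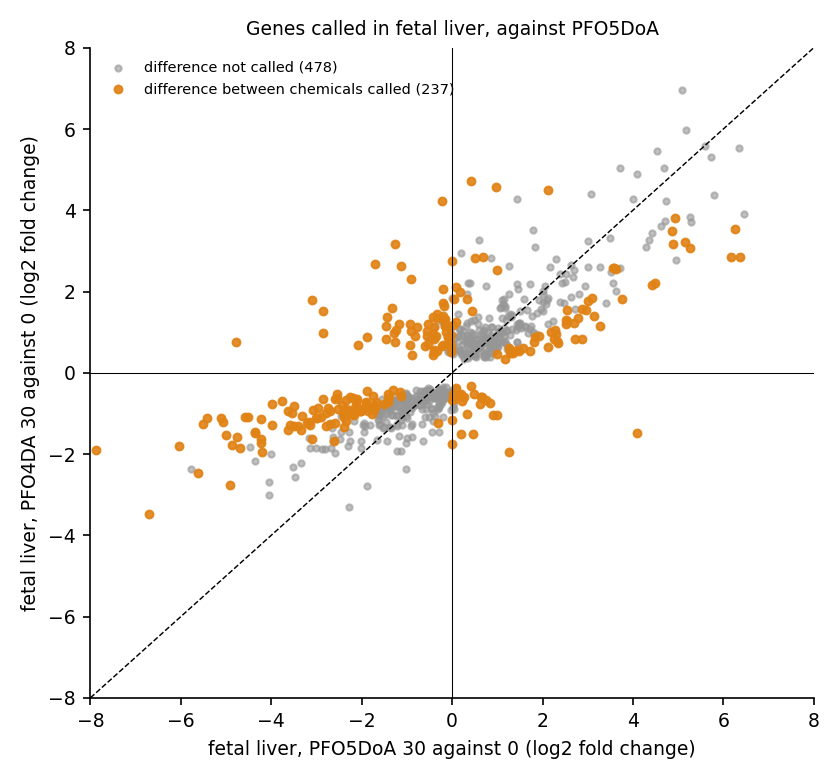
Log2 fold change in fetal liver at 30 against 0 mg/kg/d of PFO4DA (vertical) and of PFO5DoA (horizontal) for the genes called under PFO4DA; orange points are the 237 genes whose change differed between the chemicals by the test of the difference, and the dashed line marks equal change. Orange points lie on both sides of the line, and those in the upper left and lower right quadrants moved in opposite directions.

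Of the named genes, ENSRNOG00000004009 fell further under PFO5DoA. It stood at 80.9 to 147 CPM in the fetal controls of PFO5DoA and at 1.59, 0.582 and 1.23 CPM at 30 mg/kg/d, a change of -6.71 in log2 units, and the chemicals differed by -3.25, with -4.52 to -1.97 as the 95% interval (edgeR, adjusted p = 0.000188). ENSRNOG00000055221 had 5.67 to 15.8 CPM in the controls and 696 to 1040 CPM at 30 mg/kg/d PFO5DoA, so that the chemicals differed by 0.8, interval -0.77 to 2.36 (edgeR, adjusted p = 0.558). Without PFO4DA control dam 2293 it was -0.82 (edgeR, adjusted p = 0.306). ENSRNOG00000001990 fell by 1.89 on the log2 scale under PFO5DoA (edgeR, adjusted p = 0.0116), against which the PFO4DA fall was larger by 0.89, interval -0.6 to 2.38 (edgeR, adjusted p = 0.477). ENSRNOG00000029370 was again uneven, at 21.4, 2.04 and 1.13 CPM in dams 2285, 2287 and 2288, and for it the chemicals differed by -1.91, interval -5.91 to 2.09 (edgeR, adjusted p = 0.6). For these 3 genes the intervals hold differences of either sign and do not show that the chemicals act alike.

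The dam runs gave a comparison between separate litters with separate controls. Fitted alone, the first run called 115 rises and 58 falls and the second 201 rises and 106 falls (edgeR), each with 2 dosed and 3 control litters, against 366 and 352 together. The signs were matched over genes tested in both fits. Of the first run's 173 calls, 170 kept their sign in the other litters, as did 300 of the second run's 302. The runs shared 123 calls, and all 123 had one sign in both runs. Agreement in sign over all 11100 genes tested in both fits was not counted, so these counts have no background beside them. With the run as a covariate 744 genes were called. Leaving out a dosed dam moved the count of falls more than that of rises: without dam 2306 there were 359 rises and 205 falls, and without dam 2317 there were 327 rises and 222 falls.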

How the data were processed

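The authors deposited one table per chemical, holding estimated counts of each gene without normalization, from TempO-Seq of maternal and fetal liver (11.8% of the PFO4DA values have decimals). Tools named in the submitters' processing notes are STAR 2.7.8a, Partek and DESeq2, and the build is mRatBN7.2, without saying which made which step. Counts were rounded to whole numbers. Each of the 20311 rows is an Ensembl gene; 0 columns were left unmapped.

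Dose effects were fitted in R 4.3.3 by edgeR 4.0.16, with the filterByExpr filter on dose groups, TMM factors and robust quasi-likelihood F-tests, over all 30 fetal PFO4DA libraries. The same fit was made for the 30 maternal ones, for both livers with the dam as a block, and for fetal libraries of both chemicals. In the last a PFO5DoA control library of very low total (dam 2279, under 0.25 of the median) and the 0.1 mg/kg/d group were left out. Standard errors come from the fitted information matrix scaled by the quasi-dispersion, and 95% intervals are not adjusted over genes. Levels are CPM of the library total. Genes at an adjusted p below 0.05 are called. The naming rule took the 12 largest rises and falls with at least 5 CPM in either group and every dosed library on one side of the control mean, of which 2 and 2 identifiers are given. Its parts that name genes by symbol, the gene lists and the markers could not be applied. Members, lists and rule were chosen with earlier results of these data known. Libraries within a group differed by more than sampling noise (lowest chi-square over degrees of freedom 15, in 21 pairs). Scripts were tested on simulated data. Alternatives were DESeq2 1.42.0, limma 3.58.1 voom, RLE scaling, no filter, fewer groups in the fit, dam run, replicate block, a fold minimum and leaving out each dam.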

Additional observations from a re-analysis of the deposited data

Results flagged for a closer look

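The values of the 4 named genes and of the summed sets were checked for a library far from the others. This was done in 24 groups of 4 to 6 libraries, on values without a log transform. Chance alone marks about 1 in 20 such groups if values are normally distributed. The rate for the values used here was not tested. Control dam 2293 stood apart for ENSRNOG00000055221 in fetal liver, with 49.2 CPM against 2 to 6.71 CPM in the other 5, and control dam 2310 for the same gene in maternal liver, with 2.03 CPM. For ENSRNOG00000001990 control dam 2308 stood apart in fetal liver with 129 CPM, and dam 2318 in maternal liver at 30 mg/kg/d with 461 CPM.

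By a test of the difference itself (edgeR), the effect of 30 mg/kg/d PFO4DA differed between fetal and maternal liver in 119 genes, and the effect of 30 mg/kg/d in fetal liver differed between the chemicals in 1591 genes. Among them were ENSRNOG00000004009, with differences of -2.85 (fetal minus maternal) and -3.25 (PFO5DoA minus PFO4DA), and ENSRNOG00000001990, with a difference of -2.47 (fetal minus maternal).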

How the results depend on the processing

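The 718 genes called in fetal liver at 30 mg/kg/d PFO4DA were 895 with DESeq2, 715 with limma-voom, 721 with RLE scaling and 596 with no filter. They were 455 with only the 30 and 0 mg/kg/d libraries in the fit, 173 and 307 in the first and the second dam run alone, and 345 with a minimum fold of 2. Scaled by library totals alone, an alternative chosen after seeing the data, 662 were called, of which 61% were rises against 51% in the reported fit. Leaving out 1 dam gave 549 to 787 calls for fetal liver, 51 to 61 for maternal liver (65 reported, 105 with DESeq2) and 2228 to 3588 for PFO5DoA (3443 reported). The last 2 were added after seeing the data. The 119 genes that differed between the livers were 300 with no filter, 70 with only 30 and 0 mg/kg/d, and 56 to 116 with 1 dam left out. The 1591 that differed between the chemicals were 1003 with a minimum fold of 2 and 922 to 1745 with 1 dam left out. The cause of these shifts was not tested, except that fewer libraries entered where libraries were left out.

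The difference between the livers for ENSRNOG00000055221, -0.01 as reported and never called, was 0.01 with RLE scaling, 0.03 with no filter, 0.04 with only 30 and 0 mg/kg/d and 0.35 with DESeq2. Leaving out 1 dam gave -0.38 to 0.93 (0.37 without dosed dam 2306), and for the difference between the chemicals, 0.8 as reported, -0.82 to 1.1. Of the values of the 4 named genes under other settings, 75 kept their direction and side of the threshold, 4 changed sign, 2 lost and 1 gained the call. With 1 dam left out these were 148, 3, 1 and 0.

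With the replicate number of the fetal titles as a block, 552 genes were called in fetal liver, and 1626 differed between the chemicals. Same-numbered dosed and control libraries deviated with correlations of -0.33, -0.138, -0.452 and -0.246, and 0 of 4 correlated best with their own number, so the numbers were not taken as pairs. The stage of a library by fetal marker genes was not run, since markers could not be looked up. Genes of a few counts per library allow only large changes to be seen at this depth.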
